A study of Enallax costatus with 10 samples.

Results

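The comparison set Early desiccation against Hydrated drops of the green alga Enallax costatus and asked which transcripts differ once drying has begun. It covers every assembly gene with 10 or more counts in at least 2 of the 4 libraries of these stages, which gave 14493 of the 32478 genes in the deposited table (44.6%). RNA was sequenced from a culture of strain CCAP 276-31, which the series title describes as a desert alga, grown for 6 weeks and spotted as 40 µL drops on cover glass. Hydrated drops were collected at 0 h, straight after spotting. Early desiccation drops were collected at 2.5 h, when 25% of their volume was gone. Both stages thus share strain, medium and drop size, and differ in time as well as in water, so that drying and 2.5 h on glass cannot be told apart. Each stage had 2 libraries, and the labels do not say that these came from separate cultures. The series has 10 libraries in all, with 2 each for Late desiccation (7.5 h, 60% of the volume lost), Dry (about 24 h, of which 11 h were spent dry) and Rehydrated (1 h after water was returned).

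As a drop dries, solutes become concentrated around the cells, turgor is lost and photosynthesis slows, while metabolism and transcription can still go on during the first part of the water loss. Desiccation-tolerant green algae are known for protective proteins such as late embryogenesis abundant proteins, for chaperones, compatible solutes and antioxidants, and for adjusting their light-harvesting apparatus. The deposited tables give identifiers of a Trinity assembly without gene names or sequences, so none of these classes could be looked up, and genes are described by level, size of change and course. Identifiers may also stand for parts of genes, or for close copies among which reads had to be divided.

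Total counts were 3611852 and 2808813 in Hydrated and 3448980 and 3867192 in Early desiccation (replicates 1 and 2), and the genes compared held between 95.3% and 99.2% of them. Replicates of a stage were more alike than libraries of different stages. Pearson correlations of log2 CPM (counts scaled to a common library size, after adding 2 counts) across the 14493 genes were 0.89 between the Hydrated libraries and 0.92 between the Early desiccation libraries, and 0.80 to 0.84 across the stages. Of these genes, 3.28% differed over 4-fold between the Hydrated libraries and 2.48% between the Early desiccation libraries, against 7.39% to 9.01% in the 4 pairings across stages. No pair looked like a library deposited again, as a chi-square over genes came to 24.3 per degree of freedom in Hydrated and 35.1 in Early desiccation. One library stood apart from its partner in a way the labels do not explain. Hydrated replicate 2 shared 147 genes, at 3 or more counts each, with Late desiccation replicate 2 and both Rehydrated libraries that had no counts in the other 6 libraries, whereas no other set of 4 libraries had more than 19. A gene of this kind cannot have 10 counts in 2 of the 4 libraries and so cannot be among the 14493. Whether the same feature of that library touches genes that are among them was not tested, and the counts of called genes are also given without Hydrated replicate 2.

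**Figure D1:**
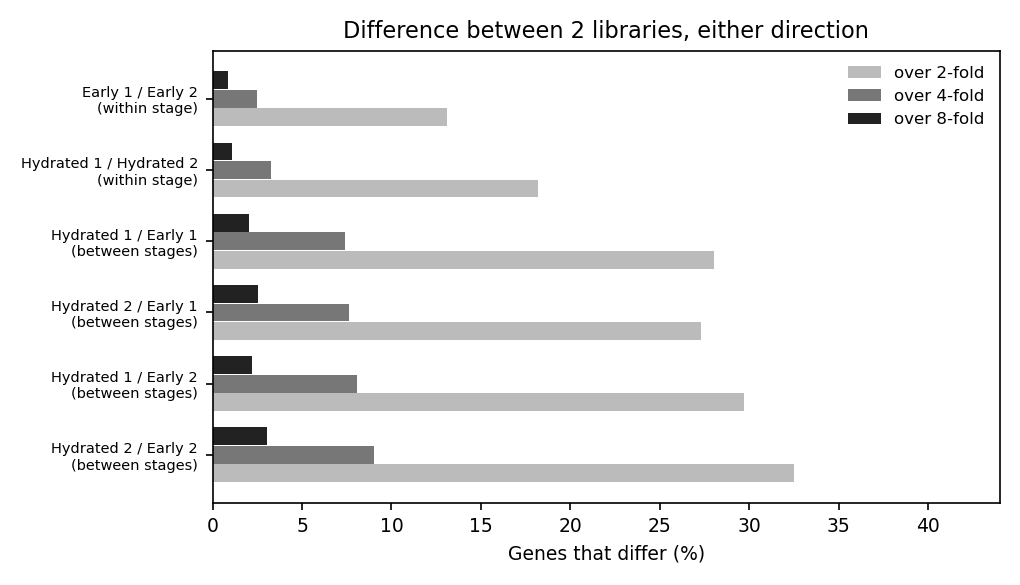
Percentage of the 14493 genes that differed over 2-, 4- and 8-fold, in either direction, between the 2 libraries of each pairing; bars are grouped as within a stage or between stages. Pairings across stages exceeded 4-fold in 7.39% to 9.01% of genes, and pairings within a stage in 2.48% and 3.28%.

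By 2.5 h of drying, 242 genes were higher and 407 were lower than in Hydrated drops, together 4.48% of the 14493 tested (1.67% higher and 2.81% lower). A gene was called when its p from edgeR's quasi-likelihood test on the 4 libraries, adjusted by the Benjamini-Hochberg method over all 14493 genes, was under 0.05. Genes that rose had a median log2 fold change of 1.95 (quartiles 1.61 and 2.45), and those that fell had -2.32 (quartiles -3.45 and -1.83), whereas the median over all genes tested was -0.02. These medians were the same with genes at 0 counts throughout a stage set to their lower bound. No called gene changed by less than 2-fold. Among the risen genes 127 changed 2- to 4-fold and 80 changed 4- to 8-fold, and among the fallen genes 139 and 140 did. Changes over 16-fold, leaving out genes with no counts in a stage, were fitted for 6 risen and 29 fallen genes. RNA was taken from whole drops, so fewer cells of a kind and less RNA per cell cannot be told apart.

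In all 242 risen and all 407 fallen genes both libraries of a stage lay on 1 side of both libraries of the other. This held for 53.4% of all genes tested. Calling genes on these same libraries nearly settles it, so it lends the calls no further weight. The gap between the nearest libraries was a median of 2.85-fold for risen and 3.05-fold for fallen genes, and it was over 2-fold in 238 and 395 of them. Against Hydrated replicate 1, the median log2 ratio of the risen genes (0.5 CPM added) was 1.76 in Early desiccation replicate 1 and 2.14 in replicate 2. Against Hydrated replicate 2 it was 1.75 and 2.06. The fallen genes were at -2.17 and -2.41 against Hydrated replicate 1, and at -2.04 and -2.25 against replicate 2. Both lists therefore lay farther from Hydrated in Early desiccation replicate 2 than in replicate 1, against either Hydrated library.

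The count of calls depended on the libraries in the fit. Without Early desiccation replicate 2, edgeR called 9 genes (0.0621%), 3 higher and 6 lower, with 1963 genes under an unadjusted p of 0.05. All 649 genes had the same sign in that fit, which choosing them on these libraries nearly settles. Without Early desiccation replicate 1 it called 475 (3.28%; 211 higher and 264 lower). Without Hydrated replicate 1 it called 833 (5.75%), and without Hydrated replicate 2, the library that stood apart, 842 (5.81%; 330 higher and 512 lower). Of the 649 genes, 481 were called again without Hydrated replicate 1, 489 without Hydrated replicate 2, 347 without Early desiccation replicate 1 and 7 without replicate 2, in the same direction. One edgeR fit of all 10 libraries, where the spread also comes from the other stages, called 55 of the 14493 genes (0.379%), 16 higher and 39 lower, and all 55 were among the 649 in the same direction. With another set of genes, that fit called 0 of the 16190 genes that edgeR's own filter keeps over 10 libraries (0%), with a lowest adjusted p of 0.0587 and 1781 genes under an unadjusted p of 0.05. DESeq2 called 1089 of the 14493 genes (7.51%) on the 4 libraries. When the 4-library fit was chosen, it was known that the fit of all 10 libraries had called 0 genes. It was also known that a fit of the 4 libraries called far more.

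**Figure D2:**
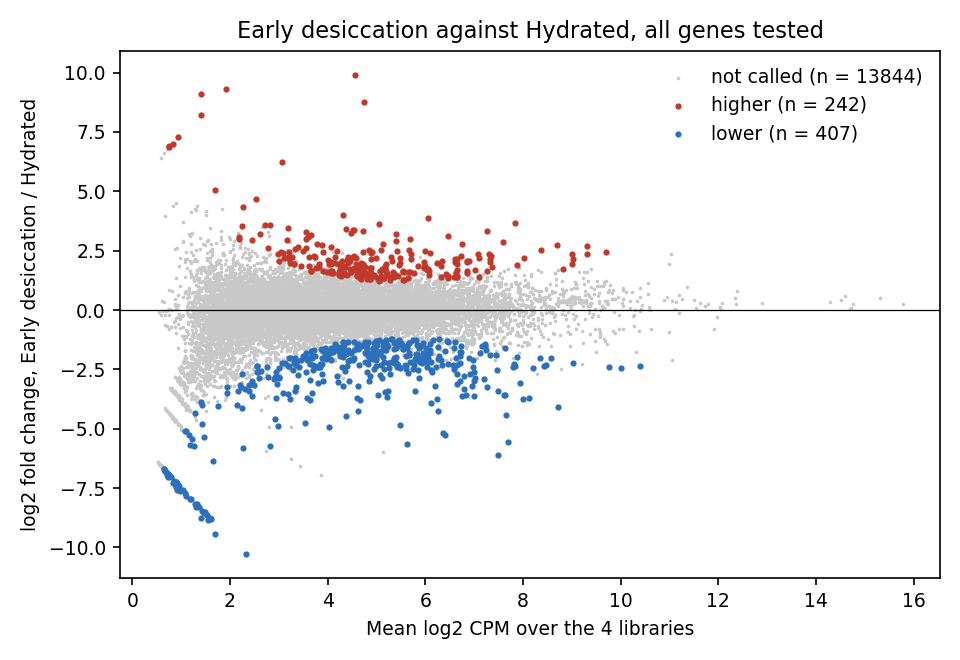
Log2 fold change of Early desiccation over Hydrated (edgeR, 4 libraries) against mean log2 CPM for each of the 14493 genes; red points are the 242 genes called higher and blue points the 407 called lower. Points in slanting lines at the left are mostly genes with no or few counts in a stage, whose fitted fold change depends on the prior count.

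The genes to name were taken by size of change among called genes that had 3 counts or more in every one of the 4 libraries, no overlap between the stages and 10 CPM or more on average where they were higher, which left 226 risen and 337 fallen genes. Larger fitted changes lay outside these limits. One was the rise of TRINITY_DN52974_c0_g2, from 4 and 0 counts in Hydrated to 1089 and 3293 in Early desiccation (log2 fold change 9.91, edgeR adjusted p = 0.00441). Its fitted size rests on few Hydrated counts. Within the limits, the largest rise was in TRINITY_DN211110_c1_g2, which had 20 and 12 counts in the Hydrated libraries and 176 and 380 in the Early desiccation libraries. Both drying libraries were above both Hydrated libraries, and replicate 2 was the higher of the pair. Its level went from 4.76 ± 0.985 CPM to 78.1 ± 38.8 CPM (SD, n = 2 each), 16.4-fold between the means (SE 0.46 on the log2 scale, adjusted p = 0.0088 by edgeR). There were 79 and 80 counts in Late desiccation, 41 and 31 in Dry, and 4 and 6 in Rehydrated. On the common scale these were 44.9 and 35.7 CPM, 40.9 and 25.0 CPM, and 4.35 and 15.7 CPM, so both libraries of Late desiccation and of Dry were above both Hydrated libraries and 1 Rehydrated library was back among them. Per length, in the second deposited table, it ranked 13256th of the 14493 genes in Hydrated and 1593rd in Early desiccation.

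TRINITY_DN201936_c1_g5 had the next largest rise, with 64 and 53 counts in Hydrated and 514 and 1384 in Early desiccation. The Hydrated libraries were nearly equal and the drying libraries were unequal, and the stages did not overlap. Its level went from 17.7 ± 0.345 CPM to 266 ± 167 CPM (SD, n = 2 each), or 3.89 on the log2 scale (SE 0.51, adjusted p = 0.00976 by edgeR). The call was lost in the fit of all 10 libraries (edgeR adjusted p = 0.147) and in that of the 8 without Rehydrated (0.0564). Later levels were 117 and 128 CPM in Late desiccation, 15.97 and 496 CPM in Dry, and 19.6 and 36.6 CPM in Rehydrated. On the common scale the Dry libraries stood on opposite sides of the Early desiccation range, 1 of them below Hydrated and the other above both drying libraries.

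Within the same limits, TRINITY_DN209437_c0_g1 had the largest fall, with 9636 and 2000 counts in the Hydrated libraries and 109 and 63 in the Early desiccation libraries. The Hydrated libraries differed from each other, but the lower of them was still far above both drying libraries. Its level went from 1654 ± 1381 CPM to 24.4 ± 9.80 CPM (SD, n = 2 each), or -6.09 on the log2 scale (SE 0.79, adjusted p = 0.00971 by edgeR). Per length it ranked 43rd in Hydrated and 4045th in Early desiccation. Later it was at 17.6 and 47.7 CPM in Late desiccation, 397 and 125 CPM in Dry, and 170 and 31.3 CPM in Rehydrated. All 6 later libraries were below both Hydrated libraries, and the Dry libraries were above both drying libraries.

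TRINITY_DN263508_c0_g1 had the second largest fall, with 1623 and 748 counts in Hydrated and 19 and 30 in Early desiccation. Its level went from 348 ± 134 CPM to 6.90 ± 2.03 CPM (SD, n = 2 each), or -5.66 on the log2 scale (SE 0.49, adjusted p = 0.00352 by edgeR, the lowest value in the comparison, which other genes share). Unlike the gene before it, it had no more than 15 counts in any later library, at levels between 2.17 and 12.1 CPM. Per length its rank went from 185th in Hydrated to 8875th in Early desiccation. Without Early desiccation replicate 2 none of the 4 named genes was called (edgeR adjusted p = 0.0508 for 3 of them and 0.0998 for TRINITY_DN209437_c0_g1).

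**Figure D3:**
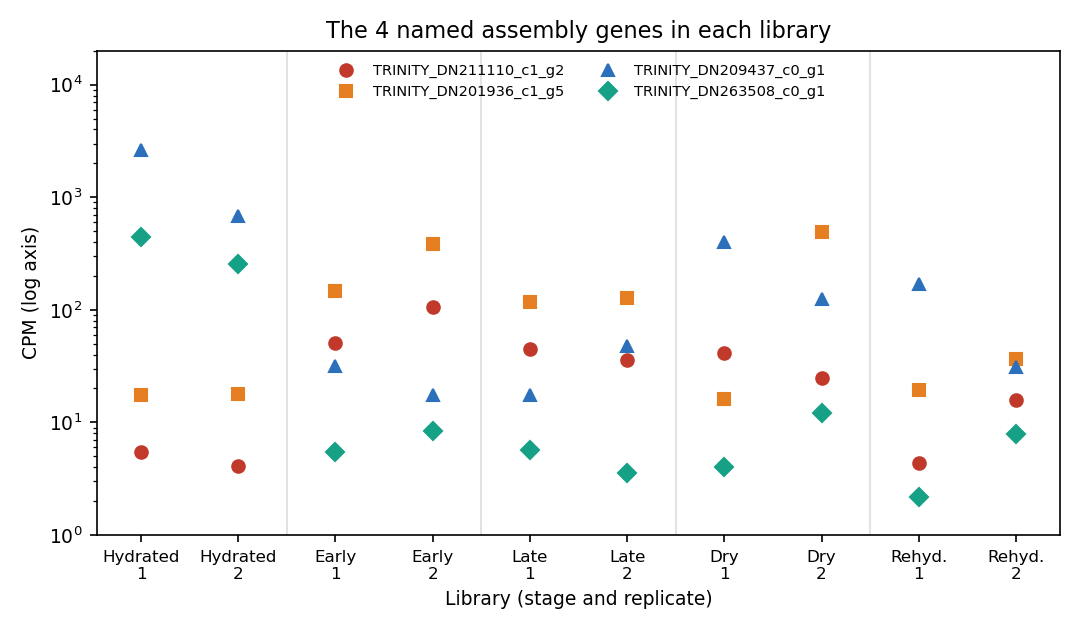
CPM on a log axis of the 4 named assembly genes in each of the 10 libraries, in the order of the stages; each point is 1 library. The 2 risen genes (circles and squares) lie higher in both Early desiccation libraries than in both Hydrated libraries, and the 2 fallen genes (triangles and diamonds) lie lower.

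The called genes carried a small part of all counts. The 407 fallen genes held 5.90% ± 1.23 of all counts in Hydrated and 0.993% ± 0.150 in Early desiccation (SD, n = 2 each). The 242 risen genes held 0.742% ± 0.0318 in Hydrated and 3.19% ± 0.598 in Early desiccation. Since the called genes were selected on these libraries, the shares describe their weight and carry no test, and the smallest two-sided p that an exact permutation of 2 against 2 libraries allows is 1 in 3. The genes called by DESeq2 on the same libraries held more, with 10.9% ± 1.61 and 2.69% ± 0.259 for the lower genes and 3.25% ± 0.011 and 9.28% ± 1.44 for the higher genes, in Hydrated and Early desiccation in that order. Of the fallen genes called by edgeR, 127 were at 100 CPM or more in Hydrated and held 4.82% ± 1.16 of its counts, falling to 0.749% ± 0.120. The 9 of them at 1000 CPM or more went from 1.62% ± 0.521 to 0.199% ± 0.0466, with log2 fold changes between -6.09 and -2.23. Of the risen genes, 71 reached 100 CPM or more in Early desiccation, and the 7 at 1000 CPM or more went from 0.188% ± 0.0306 of counts to 0.924% ± 0.258, with log2 fold changes between 1.94 and 2.73.

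Most of the highest genes were shared by both stages. Of the 100 genes highest per length in Hydrated, 78 were also among the 100 highest in Early desiccation. Of the Hydrated 100, edgeR called 4, all lower, with 15 genes under an unadjusted p of 0.05, and DESeq2 called 6 higher and 8 lower, where it called 7.51% of all genes. Of the Early desiccation 100, edgeR called 0, with 16 genes under an unadjusted p of 0.05, and DESeq2 called 16, all higher. Each list was picked as high in a stage of the comparison, which favours that direction. Their median log2 fold changes were 0.31 and 0.47, against -0.02 over all genes tested. Ranked by counts instead, the 100 highest genes had 3 rises and 4 falls. Among the next 900, 35 rose and 61 fell, which is 10.7% against the 4.48% of all genes.

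Some transcripts had counts in only 1 of these 2 stages. With 10 or more counts in both Hydrated libraries and none in either Early desiccation library, 72 genes had Hydrated levels of 3.06 to 44.9 CPM (median 4.77). The reverse pattern was found in 10 genes, with Early desiccation levels of 3.11 to 23.0 CPM (median 4.51). A count of 0 in both libraries allows a level of up to 0.424 CPM in Early desiccation and 0.454 CPM in Hydrated (3 counts over the stage), so the highest of the 72 was at least 106-fold lower in Early desiccation and the highest of the 10 at least 50.6-fold higher. These limits cover counting error only. Choosing genes this way fixes the direction of the difference. Over the whole table, 26915 and 30145 genes had a count in the Hydrated libraries and 21615 and 23114 in the Early desiccation libraries, and the part of this in the numbers of such genes was not tested. In the 72 genes at least 1 count returned in 59 genes at Late desiccation, 43 in Dry and 61 in Rehydrated, but 10 or more counts in both libraries of a stage returned in 5, 3 and 6. Of the 10 genes, 8 had a count at Late desiccation, 8 when Dry and 7 when Rehydrated. More loosely, 784 genes reached 10 counts in both Hydrated libraries and in neither Early desiccation library, and 282 did so the other way round. Such genes were in the comparison only because of the stage where they are high, and 86 of the 407 falls and 19 of the 242 rises are of this kind. Without them 13427 genes were left, of which 223 rose and 321 fell (4.05%), with median log2 fold changes of 1.92 and -2.10. Among the 11314 genes with 10 or more counts in all 4 libraries, 211 rose and 303 fell (4.54%).

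Calls were spread over levels and lengths. By quartile of mean log2 CPM, from low to high, 15, 40, 92 and 95 genes rose and 81, 65, 97 and 164 fell, so the percentage called was 2.65%, 2.90%, 5.22% and 7.15%. The median absolute log2 fold change went the other way, from 0.82 in the lowest quartile to 0.45 in the highest. By quartile of effective length (counts divided by the second table's value, an estimate up to a common factor), from short to long, 35, 65, 68 and 74 rose and 70, 78, 96 and 163 fell. Length and counts moved together, with a median of 6.72 CPM in the shortest quartile and 36.8 CPM in the longest, and their separate parts were not tested.

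Close assembly relatives could be followed through the identifiers, which group genes into components of the assembly that may share sequence. Components with a single gene in the comparison supplied 11463 genes, of which 170 rose and 285 fell (3.97%). The 2416 genes in pairs gave 63 rises and 91 falls (6.37%), and the 614 in larger components 9 and 31 (6.51%). Genes of 1 component share reads in part, so their values are uncertain and not independent. Of the named genes, TRINITY_DN211110_c1_g2 was in such a pair and the others were single. Of the 1361 components with 2 or more genes in the comparison, 25 had 2 or more called. All called genes rose in 5 of these, all fell in 17, and the directions were mixed in 3. Falls also outnumbered rises among all calls, 407 against 242. The largest component held 47 genes, of which 3 were called, all lower, and the log2 fold changes of the 47 ran from -2.36 to 1.14 with a median of -0.95. Together they held 0.231% and 0.12% of all counts in the Hydrated libraries and 0.122% and 0.175% in the Early desiccation libraries, so their total overlapped between the stages.

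**Figure D4:**
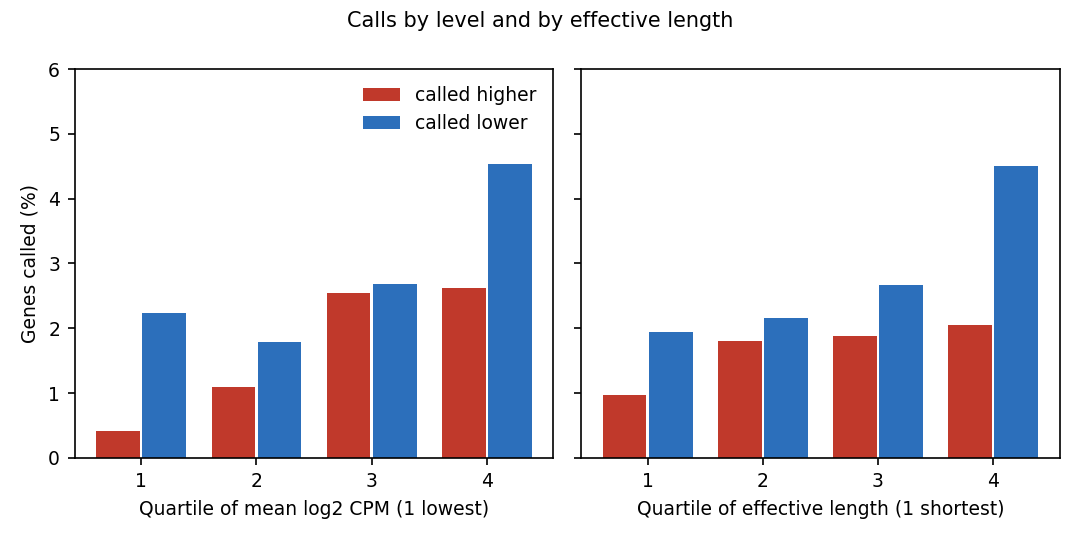
Percentage of genes called higher (red) and lower (blue) in Early desiccation against Hydrated, by quartile of mean log2 CPM (left) and of effective length (right). The percentage called lower was 4.53% in the highest quartile of level and 4.51% in the longest quartile.

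The later stages, which played no part in choosing the called genes, show where these genes went next; Late desiccation, Dry and Rehydrated levels are given beside the first stages and not as further contrasts, since those would share the Hydrated libraries. The risen genes had a median of 14.2 and 14.6 CPM in the Hydrated libraries and 48.0 and 58.2 CPM in Early desiccation. They stood at 45.2 and 45.0 CPM in Late desiccation, 26.9 and 30.6 CPM in Dry, and 17.4 and 15.7 CPM in Rehydrated. The median of all genes tested was 15.9 and 15.6 CPM in Late desiccation, 11.98 and 11.3 CPM in Dry and 14.1 and 13.1 CPM in Rehydrated. All later levels rest on the scale factors of the libraries, which were 0.93 to 1.05 in Hydrated and Early desiccation. These factors were 0.67 and 0.79 in Late desiccation, 0.40 and 0.33 in Dry and 0.47 and 0.19 in Rehydrated. Levels scaled to total counts alone would be lower at these 3 stages. On the common scale the risen genes were near their early level at 7.5 h in both libraries. Their medians 1 h after rewetting were near the Hydrated ones on that scale. On total counts alone both Late desiccation medians would be below both Early desiccation medians, and both Rehydrated medians below both Hydrated ones. The share of all counts in the risen genes was 3.19% ± 0.598 in Early desiccation and 1.89% ± 0.0778 in Late desiccation (SD, n = 2 each). In Hydrated and in Rehydrated the medians of the risen genes were also near those of all genes tested, which were 14.5 and 14.9 CPM in Hydrated. Choosing genes as low in Hydrated and high in Early desiccation favours later levels between the 2, so a return on rewetting was not tested. Early desiccation was the stage with the highest mean for 132 of the 242 genes (54.5%, against 15.1% of all genes tested), Dry for 68 (28.1% against 26.4%), Late desiccation for 38 (15.7% against 18.4%) and Rehydrated for 4 (1.65% against 23.9%). Choosing genes as high in Early desiccation favours that stage as the highest and leaves fewer for the others. The share with their peak in Dry was near that of all genes.

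The fallen genes had medians of 56.0 and 47.8 CPM in the Hydrated libraries and 13.8 and 11.9 CPM in Early desiccation. They remained at 18.7 and 17.4 CPM in Late desiccation, 17.0 and 15.3 CPM in Dry and 23.9 and 23.5 CPM in Rehydrated. In every later library the median was below both Hydrated medians and above both Early desiccation medians. Choosing genes as high in Hydrated and low in Early desiccation favours such a place between them. Being above Early desiccation also rests on the scale factors given above. On total counts alone no later library would have a median above both Early desiccation medians, and both Dry medians would be below them. Hydrated was the stage of the highest mean for 239 of the 407 genes (58.7%, against 16.3% of all genes tested), which choosing them as high in Hydrated favours. Rehydrated was the highest for 87 (21.4% against 23.9%), Dry for 78 (19.2% against 26.4%) and Late desiccation for 3 (0.737% against 18.4%). Without the 86 fallen genes that were in the comparison through Hydrated alone, the Dry medians were 31.9 and 31.4 CPM, beside 18.7 and 16.7 CPM in Early desiccation and 78.3 and 65.1 CPM in Hydrated. The upper quartile of the list stood at 80.8 and 77.4 CPM in Dry, against 30.2 and 26.8 CPM in Early desiccation. At 100 CPM or more were 93 and 86 of the 407 genes in the Dry libraries, against 16 and 13 in Early desiccation. These Dry values rest on the same scale factors and would be lower on total counts alone. The upper quartiles of Dry and Early desiccation would then overlap, and the Dry medians would be below the Early desiccation ones. As a share of all counts the fallen genes were at 1.17% ± 0.194 by 7.5 h, at 1.71% ± 0.269 once dry and at 2.13% ± 0.436 after rewetting (SD, n = 2 each). The risen genes were at 1.89% ± 0.0778, 4.11% ± 0.434 and 1.57% ± 0.834 at the same 3 stages, and the last was 0.834% ± 0.958 without the 19 genes that were in the comparison through Early desiccation alone. For the risen genes shares and medians in CPM order the stages differently, since in Dry the share was the highest of the 5 stages and the median was below those of Early and Late desiccation. Rehydrated replicate 2 had the fewest genes with 10 counts, 4473 of the 14493. Without counts in it were 66 of the 242 risen genes and 3465 of all 14493 genes tested.

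**Figure D5:**
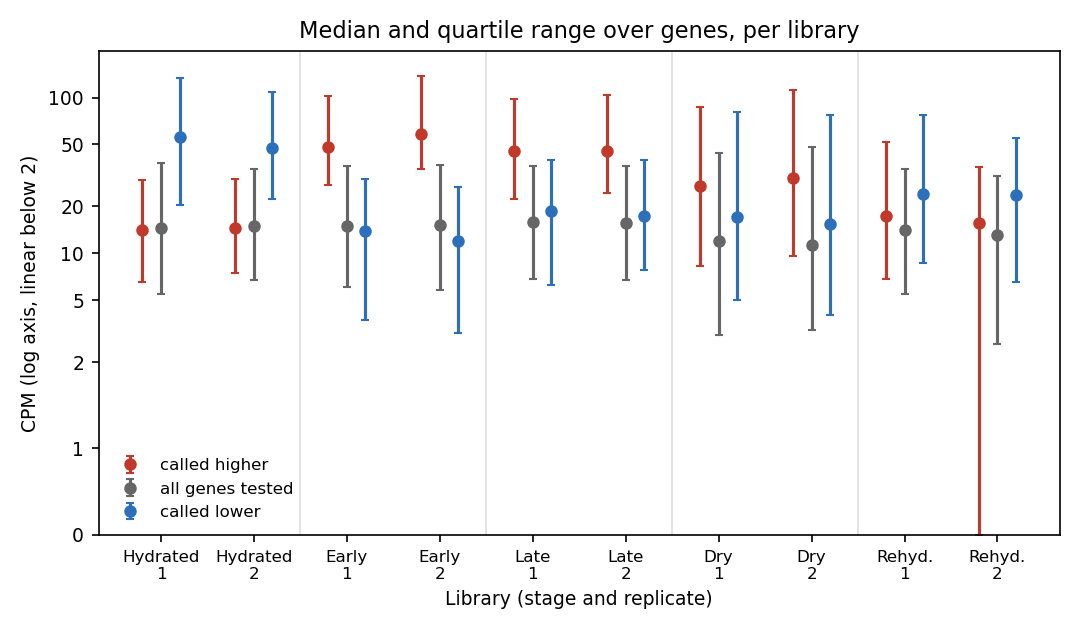
Median (points) and quartile range (bars) of CPM over the 242 genes called higher (red), all 14493 genes tested (grey) and the 407 called lower (blue), in each of the 10 libraries; the axis is logarithmic above 2 CPM and linear below. The red medians are 48.0 and 58.2 CPM in Early desiccation and 17.4 and 15.7 CPM in Rehydrated, and the blue medians stay below the Hydrated ones in all later libraries.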

How the data were processed

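The authors deposited expected counts per assembly gene (RSEM 1.2.28, per the submitters' processing notes, which also name CASAVA 1.4, Trimmomatic 0.35, Bowtie2 2.2 and DESeq2), where reads matching several sequences are divided among them; 14.5% of the values in the 4 libraries were not whole and were rounded. The second deposited table holds a score, judged from its name and values to be length-scaled expression divided by a TMM factor; its formula and the assembly are not given in the sources used here. Ribosomal RNA was removed with a plant kit and 105 custom oligonucleotides, per the labels' protocols. Columns start with Scos where titles have Ecos and were matched by replicate number and time code. edgeR 4.0.16 (R 4.3.3; TMM, quasi-likelihood, 2 residual degrees of freedom) was run on the 4 libraries; the code, not the choice of fit, was checked on simulated data. The SE of a fold is its size divided by the square root of F. Levels are CPM on TMM factors of all 10 libraries, scaled so that the 4 average to 1. DESeq2 1.42.0 and limma 3.58.1 were alternatives. Named genes were the 2 largest rises and falls under the limits given, 2 each because identifiers carry no names; pathway lists could not be applied. Since separate cultures are not stated, p-values cover only differences between these libraries, possibly technical ones. Genes, lists and the 4-library fit were chosen with earlier results of these data known.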

Additional observations from a re-analysis of the deposited data

How the results depend on the processing

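Of the 649 calls (242 higher, 407 lower), all that an alternative tested had the same sign there, a direction that choosing them on these libraries nearly settles. The total, higher and lower counts were 1202, 518 and 684 without a filter on low counts, 1089, 436 and 653 by DESeq2, 227, 78 and 149 from the second table plus 1 with limma, and 51, 16 and 35 from that table plus 0.1. The fit of all 10 libraries gave 55, 16 and 39, and with edgeR's own filter over 10 libraries, an alternative added after seeing the data, 0, 0 and 0. At an adjusted p under 0.01 the counts were 52, 17 and 35, and under 0.10 they were 1604, 688 and 916. Upper-quartile scaling called 996 with 406 higher, and total counts called 611 lower. Higher genes made up 37.3% of the calls, and this share ran from 29.1% to 44.4%, so falls outnumbered rises in every fit that made calls. The median log2 fold change over all genes, -0.02, was -0.64 without a filter, -0.0935 on total counts and -0.0714 in the fit of 10 libraries with its own filter. Leaving out each library in turn gave 9 to 842 calls, 3 to 361 higher and 6 to 512 lower, a higher share of 33.3% to 44.4% and medians between -0.0307 and 0.0226; the lone library is then assumed to vary like the other stage. The genes called by DESeq2 held more of the counts, with 3.25% in Hydrated and 9.28% in Early desiccation for the higher genes and 10.9% and 2.69% for the lower. Fits with DESeq2 size factors, with edgeR's filter on the 4 libraries, of 8 libraries without Rehydrated and by limma voom called 572, 579, 621 and 751. With the replicate number as a replicate block 833 genes were called; the numbers were not taken as pairs, since the labels give no shared source and deviations of same-numbered libraries correlated at -0.10 across genes. The named genes kept their direction in all 19 alternatives and their call in 17, 14, 17 and 17 of them. The 19 include the thresholds of 0.01 and 0.10 on the main fit, where direction could not change and, at 0.10, no call could be lost. The cause of these differences was not tested. No gene with a change under 2-fold was called with these 2 libraries a stage, so smaller changes may be present.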
